A study of Rattus norvegicus with 6 samples.

Results

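The BCL2 family members Bcl2, Bcl2l1, Bcl2l2, Mcl1, Bax, Bak1, Bid, Bad, Bcl2l11 and Bbc3 were followed by their symbols in a table of raw read counts, 10 of the 16849 genes listed. The cells were RSC96, an immortalised rat Schwann cell line, labelled wild type. PVDF@PDA cells were kept in the hypoxia model with a piezoelectric material, and PCL@PDA cells were kept in it with a material that is not piezoelectric. Control was the third group. Per the series' design text, the model was medium conditioned by macrophages, applied for 24 h, and the labels do not say whether Control cells received it. Differences from Control are therefore differences between whole conditions. Each group had 1 library of batch 1 (replicate 1) and 1 library of batch 3 (replicate 3). The free text of the PCL@PDA samples names the other material, and their titles and treatment fields were followed.

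BCL2 family proteins set whether the mitochondrial outer membrane is opened during apoptosis. The effectors Bax and Bak1 form the pore that releases cytochrome c, the pro-survival proteins Bcl2, Bcl2l1 (BCL-XL), Bcl2l2 (BCL-W) and Mcl1 hold them back, and the BH3-only proteins Bid, Bad, Bcl2l11 (BIM) and Bbc3 (PUMA) engage the pro-survival proteins or the effectors in response to stress. In Schwann cells this balance is known to bear on survival after nerve injury and loss of axonal contact. Much of it is set by protein modification and binding, which transcript levels do not show.

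Bcl2l1, Bcl2l2 and Bcl2l11 were the members that passed the test in both comparisons with Control, and their start regions are shown here to give the sequence context of those results. The windows come from RefSeq (GRCr8) and run from 250 bases before to 50 bases after an annotated start. They were matched by gene ID and symbol for 8 of the 10 members in 11 windows, 4 of them of Bcl2l1. Bax and Bbc3 were not matched. Bcl2l11 lies at chr3:135819792-135820091 on the plus strand, the first Bcl2l1 window at chr3:161764726-161765025 and the second at chr3:161763707-161764006, both on the minus strand, and Bcl2l2 at chr15:32326511-32326810 on the plus strand. Capitals mark letters of 3 motifs on either strand, the FOXO core GTAAACA, the hypoxia response letters ACGTG and the E2F motif TTTNGCGC. ACGTG is a form of the hypoxia response core, and the form GCGTG was not searched for. The motifs were chosen after the values were seen.
Bcl2l11: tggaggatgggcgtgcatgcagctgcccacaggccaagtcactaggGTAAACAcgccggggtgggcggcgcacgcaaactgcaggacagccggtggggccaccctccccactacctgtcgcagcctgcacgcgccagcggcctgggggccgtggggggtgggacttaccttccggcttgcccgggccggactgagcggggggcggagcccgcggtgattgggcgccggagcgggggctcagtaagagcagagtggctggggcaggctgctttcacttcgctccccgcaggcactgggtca
Bcl2l1 window 1: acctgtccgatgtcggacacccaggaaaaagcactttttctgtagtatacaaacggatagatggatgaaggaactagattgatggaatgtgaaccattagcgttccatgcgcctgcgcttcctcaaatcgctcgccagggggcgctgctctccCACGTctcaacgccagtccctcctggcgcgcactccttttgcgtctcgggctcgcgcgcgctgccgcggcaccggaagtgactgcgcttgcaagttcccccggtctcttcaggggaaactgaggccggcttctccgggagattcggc
Bcl2l1 window 2: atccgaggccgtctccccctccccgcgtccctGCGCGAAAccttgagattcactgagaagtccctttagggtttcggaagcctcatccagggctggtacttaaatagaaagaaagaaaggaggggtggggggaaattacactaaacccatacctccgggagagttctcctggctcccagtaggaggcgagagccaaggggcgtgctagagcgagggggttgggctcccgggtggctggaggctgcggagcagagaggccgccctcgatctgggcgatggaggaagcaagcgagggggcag
Bcl2l2: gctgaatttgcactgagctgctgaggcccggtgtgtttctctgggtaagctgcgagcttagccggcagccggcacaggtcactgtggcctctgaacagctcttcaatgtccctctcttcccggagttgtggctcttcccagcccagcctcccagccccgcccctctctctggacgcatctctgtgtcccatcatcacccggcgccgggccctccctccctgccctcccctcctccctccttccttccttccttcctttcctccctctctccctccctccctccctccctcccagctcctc
The FOXO core stood once in the Bcl2l11 window and once in that of Bad, and 3.78% of 33469 rat promoter windows of the same length hold it. The hypoxia response letters ACGTG stood once in the first Bcl2l1 window and once in that of Bcl2 (19.3% of windows). The E2F motif stood once in the second Bcl2l1 window (1.28% of windows). The GC box GGGCGG, not capitalised, stood in 6 member windows, those of Bcl2l2, Mcl1, Bak1, Bid, Bcl2l11 and the second of Bcl2l1 (33.1% of windows). These matches describe letters in the windows and not binding.

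The libraries held 32760123 to 35389307 counts. On the second principal component of the 500 most variable genes, the PCL@PDA libraries lay apart (-3.77 for replicate 1 and 18.2 for replicate 3), and so did the Control libraries (-17.7 for replicate 1 and 7.22 for replicate 3), while the PVDF@PDA libraries lay at -3.46 and -0.52. By their counts the 2 PCL@PDA libraries differed most, with a chi-square per degree of freedom of 10.2, against 4.80 for the PVDF@PDA libraries and 5.56 for those of Control. Of 15 Schwann cell markers, 14 were in the table, and their summed level was 215 to 223 CPM of library totals in PVDF@PDA, 207 to 210.2 in PCL@PDA and 171 to 185 in Control. Within that list Ngfr (0 to 4 counts per library) and Cdh19 (0 to 4) were near 0 and S100b had 2 to 28 counts, so the labelled cell type rests on genes such as Ncam1, Pmp22 and Erbb3. Macrophage markers (11 of 14 in the table) summed to 8.55 to 9.04 CPM in PVDF@PDA, 7.59 to 8.91 in PCL@PDA and 7.58 to 7.86 in Control, with 0 to 1 counts of the leukocyte gene Ptprc. Fibroblast markers (7 of 8) summed to 818 to 842, 822 to 861 and 841 to 851 CPM in the same order, mostly from Col1a2, and Dcn had 0 to 1 counts. Endothelial markers (6 of 6) summed to 16.8 to 17.5 CPM in PVDF@PDA, 13.6 to 15.8 in PCL@PDA and 18.4 to 20.9 in Control. The part of these differences in the results was not tested. In bulk RNA, fewer cells of a type and less RNA per cell cannot be told apart.

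All 10 members were expressed well enough to be tested, and they spanned a wide range of levels per gene length. On the deposited FPKM scale (fragments scaled by gene length and library total), the pro-survival gene Mcl1 had the highest mean over the 6 libraries at 55.1 FPKM, with 52.98 to 57.1 in single libraries. The effector Bax followed at 51.8 FPKM (47.1 to 62.7) and the BH3-only gene Bid at 44.7 FPKM (39.7 to 48.3). The range of Bax overlapped with those of Mcl1 and Bid, and all 3 lay above the other 7 members in every library. Next came Bad with 13.7 FPKM (11.8 to 15.3), Bcl2l2 with 10.7 (9.48 to 12.04), Bcl2l1 with 9.84 (8.81 to 11.3) and Bak1 with 9.47 (8.79 to 10.4). Each of these 4 overlapped with its neighbour in the order. Bcl2l11 lay below them in all libraries at 6.26 FPKM (5.26 to 6.84). Bbc3 lay lower again at 2.68 FPKM (2.17 to 3.59). Bcl2, the founding member, was the lowest at 1.57 FPKM (1.32 to 1.92), so the highest member mean was 35.1 times the lowest. Of the 9 pairs of neighbours in this order, 4 did not overlap between any libraries, the breaks after Bid, Bak1, Bcl2l11 and Bbc3.

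**Figure D1:**
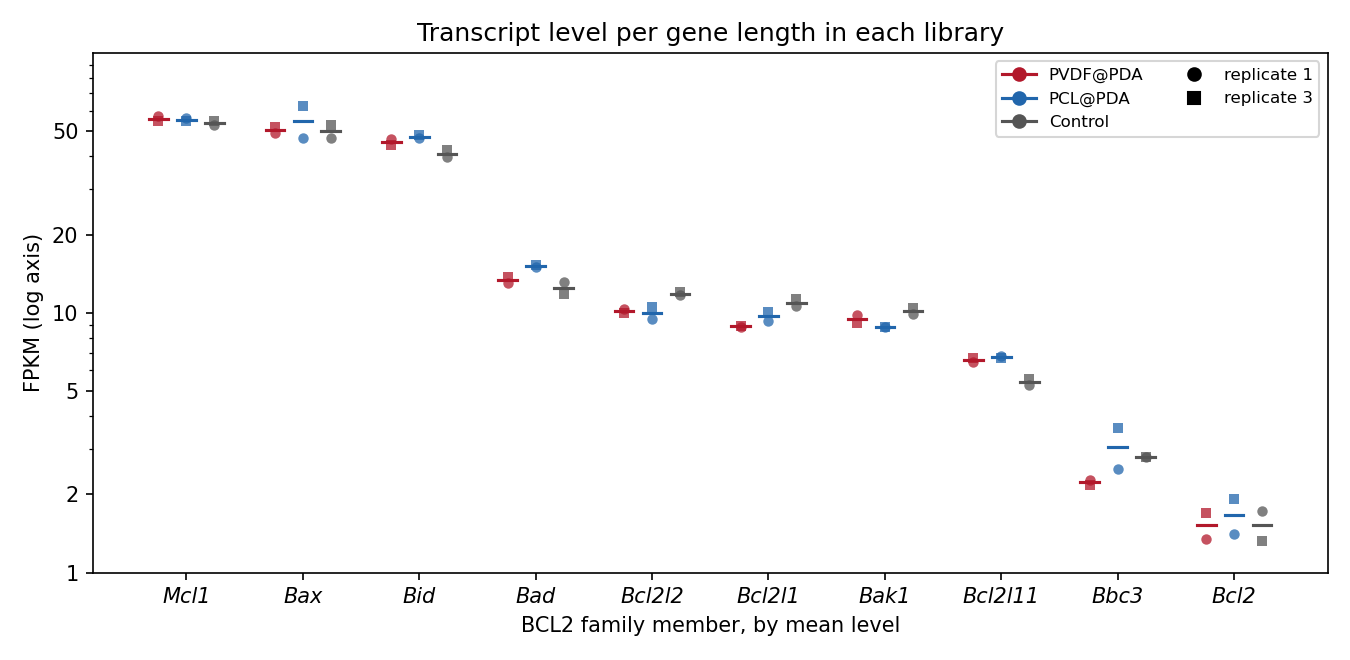
FPKM (log axis) of the 10 BCL2 family members, ordered by mean level, in PVDF@PDA, PCL@PDA and Control; circles are replicate 1, squares replicate 3 and bars group means. Mcl1, Bax and Bid form an upper group between 39.7 and 62.7 FPKM, and Bcl2 lies at 1.32 to 1.92 FPKM in every group.

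These levels divide by the gene lengths implied by the deposited values, which were 13.56 kb for Bcl2l1 but 0.83 kb for Bax and 1.18 kb for Bcl2. The order between genes depends on those lengths. Per library, the pro-survival genes made up 37.9% and 37.0% of the family's summed FPKM in PVDF@PDA, 37.5% and 34.7% in PCL@PDA and 39.5% and 38.8% in Control. The BH3-only genes made up 33.3% and 33.0% in PVDF@PDA, 35.1% and 33.2% in PCL@PDA and 31.2% and 30.4% in Control. Both groups with a material thus lay below Control for the pro-survival share and above it for the BH3-only share, in all libraries. The pro-survival sums themselves overlapped, at 77.6 and 75.2 FPKM in PVDF@PDA, 76.3 and 77.3 in PCL@PDA and 77.0 and 79.5 in Control. The BH3-only sums were 68.2 and 67.1 FPKM in PVDF@PDA, 71.4 and 73.9 in PCL@PDA and 60.9 and 62.4 in Control. A lower share is thus not a lower pro-survival sum in every library. The effectors made up 28.8% and 29.9% in PVDF@PDA, 27.5% and 32.1% in PCL@PDA and 29.3% and 30.8% in Control, with overlapping groups.

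Whether the piezoelectric material changes these genes under the hypoxia model is asked by PVDF@PDA against PCL@PDA, and no member passed the test there. The call was a Benjamini-Hochberg adjusted p below 0.05 in edgeR's quasi-likelihood test over 13018 genes, which called 8 genes, 0.0615% of all (0.0538% higher, 0.00768% lower). Of the 10 members 0 were called by edgeR and 0 by DESeq2, and 2 had an unadjusted p below 0.05, Bbc3 and Bcl2l1, as had 1105 of the 13018 genes tested. Bbc3, a BH3-only gene induced by p53, had 6.13 and 5.84 CPM in PVDF@PDA, 6.74 and 9.55 CPM in PCL@PDA and 7.68 and 7.66 CPM in Control. Both PVDF@PDA libraries were the lowest of the 6, and PCL@PDA replicate 3 was the highest. The log2 difference of PVDF@PDA from PCL@PDA was -0.44 for Bbc3 (SE 0.19, 95% interval -0.82 to -0.06, unadjusted p = 0.0232, adjusted p = 0.507). It was -0.14 within batch 1 and -0.71 within batch 3. For Bcl2l1 the log2 difference was -0.12 (SE 0.06, unadjusted p = 0.0435, adjusted p = 0.565), at -0.09 within batch 1 and -0.16 within batch 3. The members' libraries did not overlap between these groups for 5 of the 10, against 38% of all genes.

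The 95% intervals of this fit, which shares information on the spread over genes, describe these libraries and do not bound the effect of the material. For Mcl1 the 95% interval of the log2 difference ran from -0.09 to 0.12, for Bcl2l2 from -0.13 to 0.19, for Bid from -0.19 to 0.07 and for Bcl2l11 from -0.21 to 0.14. For the effectors it ran from -0.31 to 0.08 for Bax and from -0.10 to 0.33 for Bak1, and for Bad from -0.41 to 0.07. With single libraries left out, the Bax estimate itself ran from -0.29 to 0.10. The interval of Bcl2, with 52 to 76 counts per library, was the widest at -0.85 to 0.62. Without PCL@PDA replicate 1, PCL@PDA is the single library replicate 3, whose spread is then assumed to be that of the other groups. In that fit Bax (log2 -0.29, adjusted p = 0.0396) and Bbc3 (log2 -0.67, adjusted p = 0.0418) were called lower in PVDF@PDA, and 827 of all genes were then called in either direction.

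**Figure D2:**
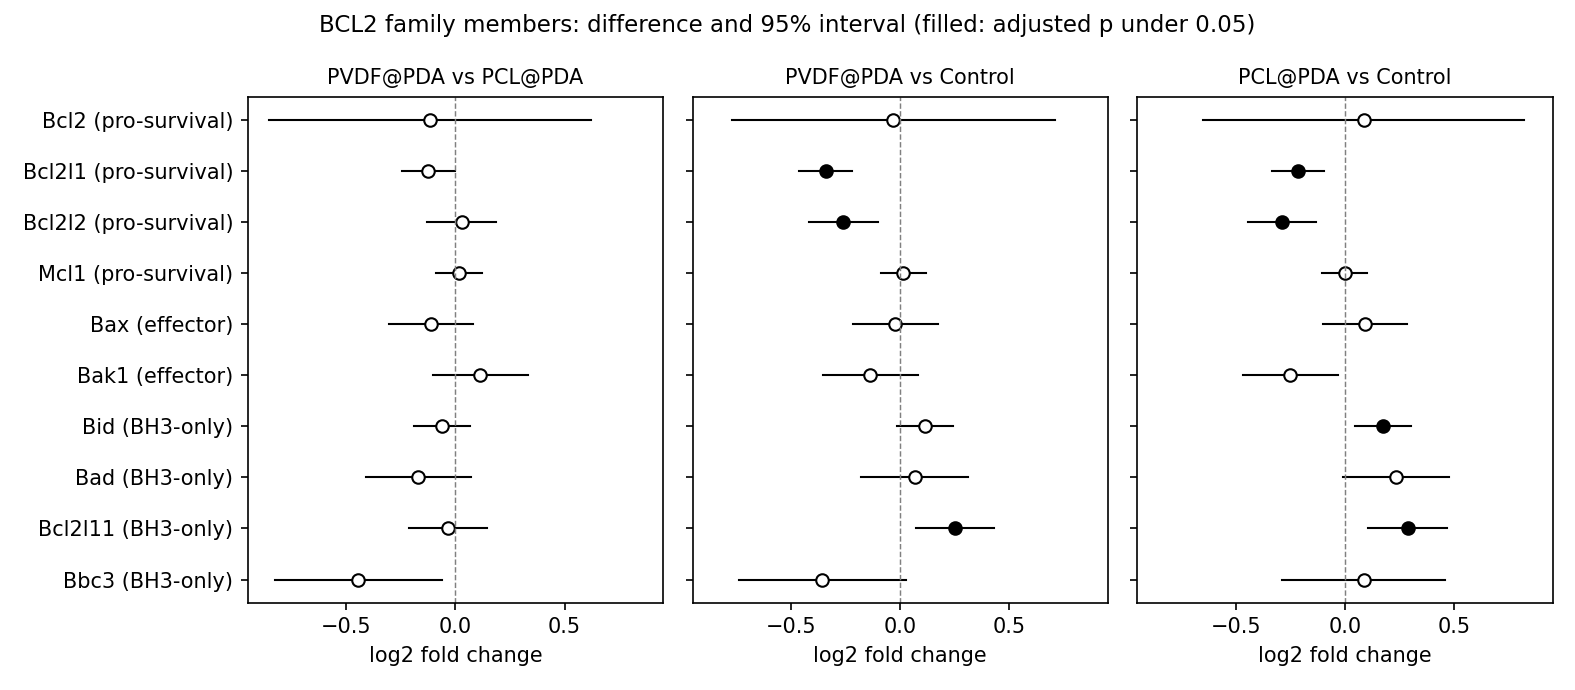
Log2 fold change of each BCL2 family member with its 95% interval in PVDF@PDA against PCL@PDA, PVDF@PDA against Control and PCL@PDA against Control; filled points have an adjusted p below 0.05 in edgeR. No point is filled for the 2 materials against each other, 3 are filled for PVDF@PDA against Control and 4 for PCL@PDA against Control.

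Against Control, 2 of the 4 pro-survival genes fell with both materials, and 1 BH3-only gene rose with both. In PVDF@PDA against Control 15.7% of all genes were called, 6.79% higher and 8.9% lower, and of the members 1 was called higher and 2 lower. Of all genes 20.1% were called in PCL@PDA against Control, 8.77% up and 11.3% down, and the members had 2 calls in each direction. The members' share was above the background in both, over 10 genes only, which were chosen with earlier results of these data known. In limma on log2 FPKM, with either pseudocount, the member calls of Bcl2l1, Bcl2l2 and Bcl2l11 were lost in both comparisons (adjusted p = 0.0517 to 0.198), and Bid in PCL@PDA was called. The 2 comparisons share their Control libraries, so their values are given side by side. The members' median absolute log2 change was 0.12 in PVDF@PDA and 0.20 in PCL@PDA, against 0.15 and 0.17 over all genes tested. The libraries of 6 members did not overlap with Control in each comparison, against 58.5% of all genes for PVDF@PDA and 56.2% for PCL@PDA.

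Among the pro-survival genes, Bcl2l1, which encodes BCL-XL and guards the outer membrane against Bax and Bak1, had 119 and 120.0 CPM in PVDF@PDA, 126 and 134 CPM in PCL@PDA and 147 and 155 CPM in Control. The 3 groups did not overlap, with PVDF@PDA lowest and Control highest. In PVDF@PDA Bcl2l1 fell by 21.0% (log2 -0.34, SE 0.06, 95% interval -0.46 to -0.22, adjusted p = 2.7e-05), with differences of -0.31 in batch 1 and -0.37 in batch 3. This call was kept without each of the 6 libraries in turn, with a highest adjusted p of 0.00399, and was lost in limma on log2(FPKM + 1) (0.0633) and log2(FPKM + 0.1) (0.0597). In PCL@PDA Bcl2l1 fell by 13.9% (log2 -0.22, SE 0.06, adjusted p = 0.00686), a call that was lost without Control replicate 3 (adjusted p = 0.130).

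Bcl2l2 encodes BCL-W, a pro-survival relative that is prominent in neural tissue. It had 51.9 and 50.02 CPM in PVDF@PDA, 47.8 and 52.1 CPM in PCL@PDA and 60.2 and 61.8 CPM in Control. All 4 libraries with a material lay below both Control libraries, and those of the 2 materials overlapped. Its log2 difference from Control was -0.26 in PVDF@PDA (SE 0.08, adjusted p = 0.0154) and -0.29 in PCL@PDA (SE 0.08, adjusted p = 0.00523). The PVDF@PDA call was lost without PVDF@PDA replicate 1 (adjusted p = 0.0634), PVDF@PDA replicate 3 (0.165), Control replicate 1 (0.0711) or Control replicate 3 (0.123). The PCL@PDA call was lost without Control replicate 3 (0.0581).

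Mcl1, a short-lived pro-survival protein, had 367 and 349.9 CPM in PVDF@PDA, 361 and 347 CPM in PCL@PDA and 349.8 and 359.8 CPM in Control. The groups overlapped. The log2 difference from Control was 0.02 in PVDF@PDA (95% interval -0.09 to 0.12) and -0.00 in PCL@PDA (95% interval -0.11 to 0.10). Bcl2 had 1.58 and 1.99 CPM in PVDF@PDA, 1.65 and 2.22 CPM in PCL@PDA and 2.07 and 1.58 CPM in Control, and its intervals against Control were -0.77 to 0.71 for PVDF@PDA and -0.65 to 0.82 for PCL@PDA. No change of Bcl2 within those bounds was resolved by these libraries.

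Of the effectors, neither Bax nor Bak1 passed the test. Bax had 40.8 and 42.7 CPM in PVDF@PDA, 39.1 and 51.1 CPM in PCL@PDA and 40.1 and 44.6 CPM in Control. PCL@PDA replicate 3 held the highest Bax value and PCL@PDA replicate 1 the lowest, so that group spanned the others. Without PCL@PDA replicate 1, the remaining PCL@PDA library, the one with the highest Bax value, was called higher than Control (log2 0.27, adjusted p = 0.0226), with the spread taken from the other groups. Bak1 had 24.3 and 22.4 CPM in PVDF@PDA, 21.8 and 21.4 CPM in PCL@PDA and 25.1 and 26.3 CPM in Control. The Control libraries were the highest 2 for Bak1, with log2 differences of -0.14 in PVDF@PDA (adjusted p = 0.439) and -0.25 in PCL@PDA (SE 0.11, adjusted p = 0.0963).

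Among the BH3-only genes, Bcl2l11 encodes BIM, which binds all the pro-survival proteins and is under FOXO control in neurons and lymphocytes. It had 38.2 and 39.6 CPM in PVDF@PDA, 40.6 and 39.2 CPM in PCL@PDA and 31.9 and 33.5 CPM in Control. All 4 libraries with a material lay above both Control libraries. Bcl2l11 rose in PVDF@PDA (log2 0.25, SE 0.09, 95% interval 0.07 to 0.43, adjusted p = 0.0479) and in PCL@PDA (log2 0.29, SE 0.09, 95% interval 0.11 to 0.47, adjusted p = 0.0170). The PVDF@PDA call lay close to the threshold and was lost in DESeq2 (adjusted p = 0.0548) and without PVDF@PDA replicate 1 (0.135), PVDF@PDA replicate 3 (0.286), Control replicate 1 (0.275) or Control replicate 3 (0.129). The PCL@PDA call was lost without PCL@PDA replicate 1 (0.0508), Control replicate 1 (0.170) or Control replicate 3 (0.0555). Bcl2l11 overlaps Acoxl in GRCr8, and Acoxl had 0 to 9 counts per library.

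Bid, which caspase 8 cleaves to link death receptors to mitochondria, had 101 and 96.0 CPM in PVDF@PDA, 102 and 103 CPM in PCL@PDA and 88.4 and 93.5 CPM in Control. All libraries with a material lay above Control. Bid passed the test in PCL@PDA (log2 0.18, SE 0.06, adjusted p = 0.0440), with 0.21 in batch 1 and 0.14 in batch 3, while its log2 difference in PVDF@PDA was 0.11 (SE 0.06, adjusted p = 0.249). The direct difference between the materials was -0.06 (adjusted p = 0.813). The PCL@PDA call was lost in DESeq2 (adjusted p = 0.0513) and without either PVDF@PDA library (0.0656 each), PCL@PDA replicate 3 (0.0900), Control replicate 1 (0.364) or Control replicate 3 (0.0818).

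Bad, a BH3-only protein that survival kinases hold inactive by phosphorylation, had 17.4 and 18.4 CPM in PVDF@PDA, 20.1 and 20.1 CPM in PCL@PDA and 18.1 and 16.1 CPM in Control. The PCL@PDA libraries were the highest 2, with a log2 difference from Control of 0.24 (SE 0.12, adjusted p = 0.177), and that of PVDF@PDA was 0.07 (adjusted p = 0.781). For Bbc3 the log2 difference from Control was -0.36 in PVDF@PDA (SE 0.19, 95% interval -0.74 to 0.02, adjusted p = 0.214) and 0.09 in PCL@PDA (95% interval -0.29 to 0.46, adjusted p = 0.803). In PCL@PDA the Bbc3 difference was -0.19 within batch 1 and 0.32 within batch 3, so its direction differed between batches.

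Ratios between members within a library do not depend on how the libraries were scaled. The FPKM ratio of Bcl2l11 to Bcl2l1 was 0.734 and 0.753 in PVDF@PDA, 0.733 and 0.667 in PCL@PDA and 0.496 and 0.492 in Control. The ratio of Bid to Bcl2l1 was 5.28 and 4.98 in PVDF@PDA, 5.04 and 4.79 in PCL@PDA and 3.75 and 3.75 in Control. All 4 libraries with a material lay above both Control libraries in these 2 ratios. The ratio of Bax to Bcl2l1 was 5.60 and 5.80 in PVDF@PDA, 5.04 and 6.22 in PCL@PDA and 4.45 and 4.68 in Control, and that of Mcl1 to Bcl2l1 was 6.49 and 6.12, 6.001 and 5.44, and 4.99 and 4.86 in the same order of groups. Both lay above Control in all 4 libraries, and all 4 of these ratios have the lowered Bcl2l1 below the line. The ratio of Bcl2l11 to Mcl1, which does not hold Bcl2l1, was 0.113 and 0.123 in PVDF@PDA, 0.122 and 0.123 in PCL@PDA and 0.0992 and 0.101 in Control. The ratio of Bax to Bak1 was 5.01 and 5.68 in PVDF@PDA, 5.36 and 7.13 in PCL@PDA and 4.77 and 5.07 in Control, and overlapped between PVDF@PDA and Control. The ratio of Bax to Bcl2, often quoted as an index of apoptosis, was 36.6 and 30.4 in PVDF@PDA, 33.6 and 32.7 in PCL@PDA and 27.5 and 40.0 in Control, with Control spanning the other groups. These ratios are descriptions and were not tested.

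**Figure D3:**
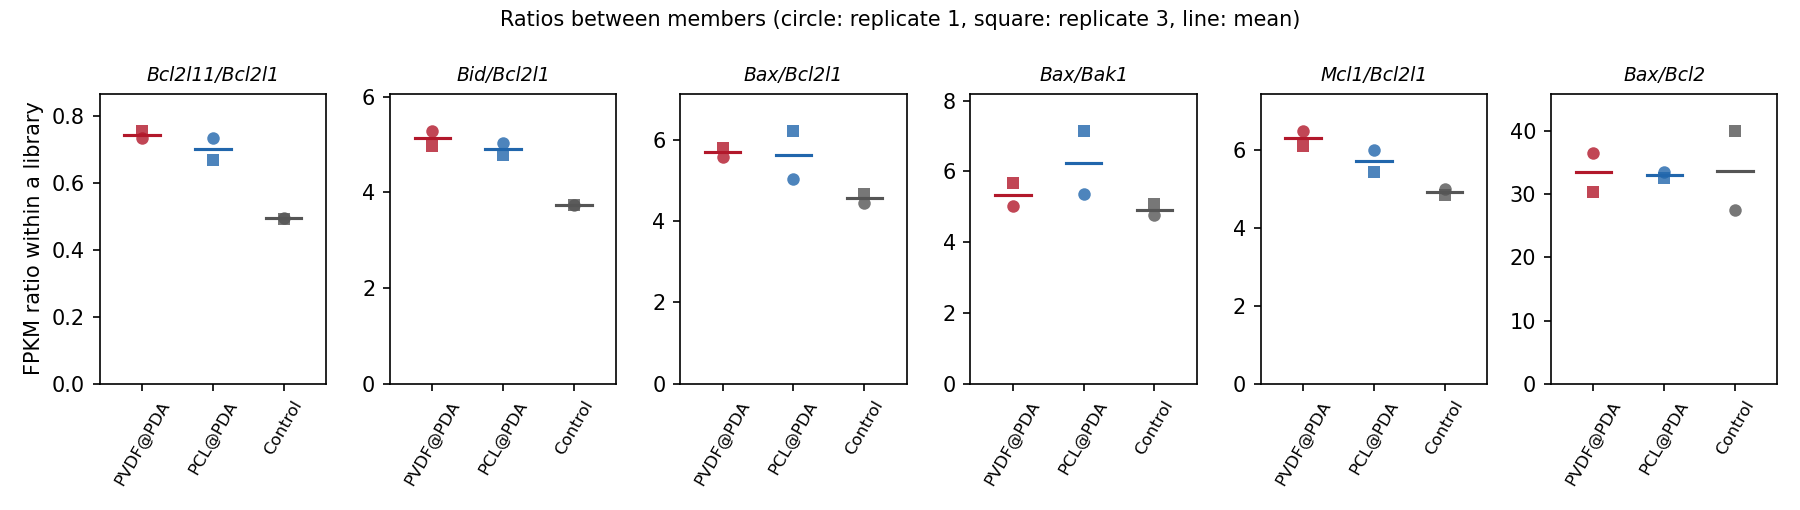
FPKM ratios between BCL2 family members within each library, in PVDF@PDA, PCL@PDA and Control; circles are replicate 1, squares replicate 3 and lines group means, and each panel has its own axis from 0. Bcl2l11 to Bcl2l1 lies at 0.667 to 0.753 in the 4 libraries with a material and at 0.492 and 0.496 in Control, while Bax to Bcl2 overlaps between the groups.

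The wider pathway was described with 8 lists of genes that act with or on the family, 120 tested genes that are not members. Between the materials 0 of the 120 were called by edgeR and 0 by DESeq2, with 10 at an unadjusted p below 0.05, beside 1105 of the 13018 genes tested. Against Control 31 were called in PVDF@PDA (14 rose, 17 fell, 25.8% against 15.7% of all genes), and 38 in PCL@PDA (16 rose, 22 fell, 31.7% against 20.1%). The lists were chosen with earlier results of these data known, so these shares are a description and no test of the pathway. The median log2 change over the 120 genes was -0.00 in PVDF@PDA and 0.01 in PCL@PDA, against 0.01 and 0.01 over all genes. With either PVDF@PDA library left out, fewer of the 120 were called in PVDF@PDA. With either Control library left out, fewer were called in both comparisons. Over all genes tested, fewer were called in these fits as well. Some genes stand in more than 1 list. Of 49 calls of genes named by rule from these lists, 20 were kept without each library in turn. In limma on log2(FPKM + 1), calls of the genes described below were lost for Casp8 and Foxo1 in both comparisons, for Pmaip1 and Sesn2 in PVDF@PDA, and for Apaf1, Xiap, Mfn2 and Sesn2 in PCL@PDA (adjusted p = 0.0527 to 0.227).

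Of 9 other BCL2 homology genes tested, 2 rose and 2 fell in PVDF@PDA, and 1 rose and 1 fell in PCL@PDA. Over all genes 15.7% were called in PVDF@PDA and 20.1% in PCL@PDA. Bnip3, a hypoxia-induced mitophagy receptor with a BH3-like stretch, had 244 and 239 CPM in PVDF@PDA, 247 and 229 CPM in PCL@PDA and 156 and 166 CPM in Control. It rose in PVDF@PDA (log2 0.59, SE 0.06, adjusted p = 1.38e-11) and PCL@PDA (log2 0.56, SE 0.06, adjusted p = 3.54e-11). The largest absolute log2 difference of a member was 0.36 in PVDF@PDA and 0.29 in PCL@PDA. Pmaip1, the BH3-only gene NOXA whose product binds MCL1, had 29.0 and 32.1 CPM in PVDF@PDA, 31.0 and 37.3 CPM in PCL@PDA and 41.0 and 40.4 CPM in Control. It fell in PVDF@PDA (log2 -0.41, adjusted p = 0.00139), a call lost without PVDF@PDA replicate 1 (0.0532). In PCL@PDA the log2 difference was -0.25 (adjusted p = 0.0503), and it was called with the batch as a term in edgeR (adjusted p = 0.0238) and without PCL@PDA replicate 3 (0.00402), but not in DESeq2 with that term (0.0981).

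Among 17 genes of the apoptosome, caspases and mitochondrial killers, Bid included, 1 rose and 2 fell in PVDF@PDA, and 2 rose and 3 fell in PCL@PDA. The share called over all genes was 15.7% in PVDF@PDA and 20.1% in PCL@PDA. Apaf1, the scaffold that cytochrome c assembles into the apoptosome, had 50.4 and 51.9 CPM in PVDF@PDA, 46.9 and 50.2 CPM in PCL@PDA and 41.2 and 38.4 CPM in Control. Its log2 change was 0.36 in PVDF@PDA (adjusted p = 0.00121) and 0.29 in PCL@PDA (adjusted p = 0.00976). The Apaf1 call was lost without Control replicate 3 in PVDF@PDA (0.0526) and in PCL@PDA (0.149), and in PCL@PDA also without PCL@PDA replicate 3 (0.0762).

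Of 11 death receptor genes tested, 0 rose in either comparison by edgeR's test, while 4 fell in PVDF@PDA and 5 in PCL@PDA, with a list median of -0.14 and -0.19. Over all genes 6.79% rose and 8.9% fell in PVDF@PDA, and 8.77% rose and 11.3% fell in PCL@PDA. The receptor gene Fas had 17.8 and 15.0 CPM in PVDF@PDA, 15.3 and 14.2 CPM in PCL@PDA and 24.5 and 25.3 CPM in Control, with log2 changes of -0.61 (adjusted p = 0.0002) in PVDF@PDA and -0.75 (adjusted p = 4.26e-06) in PCL@PDA. Cflar, which encodes the caspase 8 inhibitor cFLIP, had 76.2 and 71.5 CPM in PVDF@PDA, 73.5 and 73.2 CPM in PCL@PDA and 112 and 109.5 CPM in Control, with log2 changes of -0.59 in PVDF@PDA and -0.59 in PCL@PDA. Casp8, the initiator caspase gene of this route, fell by 0.31 in PVDF@PDA (adjusted p = 0.00731) and 0.35 in PCL@PDA (adjusted p = 0.00179), and the PVDF@PDA call was lost without PVDF@PDA replicate 1 (0.0930) or Control replicate 3 (0.119).

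Of 6 inhibitor of apoptosis genes tested, 0 rose in either comparison by edgeR's test, while 2 fell in PVDF@PDA and 3 in PCL@PDA. Over all genes 8.9% fell in PVDF@PDA and 11.3% in PCL@PDA. The largest upward log2 difference in the list, not called, was 1.49 in PVDF@PDA and 1.10 in PCL@PDA. Birc5 (survivin), which also serves chromosome segregation in mitosis, had 14.4 and 16.3 CPM in PVDF@PDA, 18.5 and 16.1 CPM in PCL@PDA and 26.2 and 25.7 CPM in Control. Its log2 change was -0.76 in PVDF@PDA (SE 0.12, adjusted p = 3.51e-06) and -0.58 in PCL@PDA (SE 0.12, adjusted p = 0.0002). Xiap, a direct caspase inhibitor, fell by 0.27 in PCL@PDA (adjusted p = 0.00196), and its log2 difference in PVDF@PDA was -0.17 (adjusted p = 0.0688). The PCL@PDA call of Xiap was lost in limma on log2(FPKM + 1) (adjusted p = 0.146). In PVDF@PDA Xiap was called with the batch as a term in edgeR (adjusted p = 0.0213) but not in DESeq2 with that term (0.120), and it was called without PVDF@PDA replicate 3 (0.0115), PCL@PDA replicate 1 (0.0126) or PCL@PDA replicate 3 (0.0136).

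Of 17 outer membrane partners and docking proteins, 3 rose and 3 fell in PVDF@PDA, and 2 rose and 3 fell in PCL@PDA. Hk2, the hexokinase that docks on mitochondria, had 122 and 119 CPM in PVDF@PDA, 127 and 121 CPM in PCL@PDA and 88.3 and 104 CPM in Control. It rose by 0.32 in PVDF@PDA (adjusted p = 0.000324) and 0.37 in PCL@PDA (adjusted p = 3.26e-05), and the PVDF@PDA call was lost without Control replicate 1 (0.116). The mitofusin gene Mfn2 fell by 0.34 in PVDF@PDA (adjusted p = 3.59e-05) and 0.20 in PCL@PDA (adjusted p = 0.0147), where the call was lost without Control replicate 1 (0.128) or Control replicate 3 (0.0718). Of 29 kinases, ligases and adaptors that act on the proteins, 3 rose and 1 fell in PVDF@PDA, and 7 rose and 2 fell in PCL@PDA. Beside both lists, 15.7% of all genes were called in PVDF@PDA and 20.1% in PCL@PDA. Dynll2, a dynein light chain that tethers BMF, rose by 0.21 in PVDF@PDA (adjusted p = 0.00351) and 0.20 in PCL@PDA (adjusted p = 0.00406). These calls were lost without Control replicate 3 (0.0721 in PVDF@PDA and 0.0657 in PCL@PDA), and in PVDF@PDA also without PVDF@PDA replicate 3 (0.106).

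Of 20 transcription factors known to act on family genes, 4 rose and 3 fell in PVDF@PDA, and 3 rose and 3 fell in PCL@PDA. Over all genes 15.7% were called in PVDF@PDA and 20.1% in PCL@PDA. Nfkb1, an NF-kB subunit, which in many cells drives Bcl2l1, Cflar and Birc3, had 65.4 and 63.6 CPM in PVDF@PDA, 64.6 and 71.7 CPM in PCL@PDA and 104 and 111 CPM in Control. Its log2 change was -0.74 in PVDF@PDA (adjusted p = 5.81e-12) and -0.66 in PCL@PDA (adjusted p = 1.13e-10). Foxo1, of the family that binds the core printed in capitals for Bcl2l11, had 18.0 and 16.9 CPM in PVDF@PDA, 15.0 and 18.8 CPM in PCL@PDA and 11.4 and 11.99 CPM in Control. It rose by 0.58 in PVDF@PDA (adjusted p = 0.00155) and 0.53 in PCL@PDA (adjusted p = 0.00302), and the PCL@PDA call was lost without PCL@PDA replicate 3 (0.124). E2f1, a cell cycle factor, rose by 0.52 in PVDF@PDA (adjusted p = 0.0002) and 0.62 in PCL@PDA (adjusted p = 7.89e-06). Whether these factors act on the members was not tested.

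Of 17 p53 target genes tested, Bax and Bbc3 included, 1 rose and 3 fell in PVDF@PDA, and 2 rose and 4 fell in PCL@PDA, with list medians of -0.06 and 0.00. The share called over all genes was 15.7% in PVDF@PDA and 20.1% in PCL@PDA. Sesn2, a stress-induced regulator of growth signalling, had 389.98 and 384 CPM in PVDF@PDA, 401 and 429 CPM in PCL@PDA and 457 and 462 CPM in Control. It fell by 0.25 in PVDF@PDA (adjusted p = 0.000351). In PCL@PDA its change was -0.15 (adjusted p = 0.0374), a call lost without either PVDF@PDA library (0.0706 and 0.0719), PCL@PDA replicate 1 (0.141), Control replicate 1 (0.166) or Control replicate 3 (0.188).

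**Figure D4:**
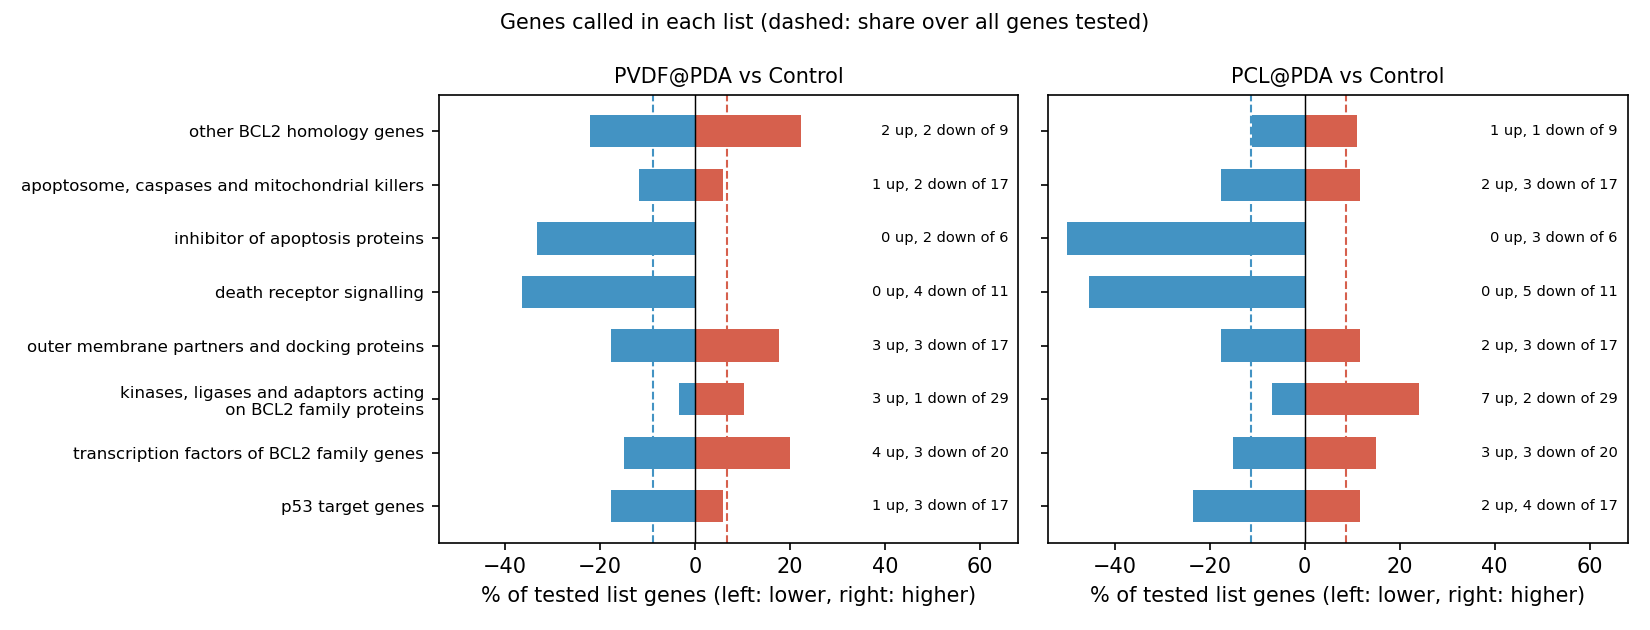
Share of the tested genes of each pathway list that were called lower (left) or higher (right) in PVDF@PDA against Control and PCL@PDA against Control; dashed lines give the share over all genes tested. The death receptor and inhibitor of apoptosis lists have calls on the lower side only, 4 of 11 and 2 of 6 in PVDF@PDA and 5 of 11 and 3 of 6 in PCL@PDA, against 8.9% and 11.3% of all genes lower.

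The genes whose levels ran most like the members' were found by Pearson's r of log2 CPM over the 6 libraries among 10379 genes. For Bcl2l1 they were Ykt6, a vesicle fusion protein (r = 0.997), the glycosyltransferase gene Extl3 (0.995) and the mitotic transcription factor Foxm1 (0.994). For Bcl2l2 they were the heme A synthesis gene Cox15 (0.996), Poglut3 (0.995) and the ubiquitin ligase scaffold Cul4a (0.993). For Bcl2l11 they were Adh5 (0.993), the heme oxygenase gene Hmox1 (0.993) and Dnm1 (0.993). The 6 points fall into the 3 groups and share their libraries, so these values describe the match of group patterns.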

How the data were processed

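The authors deposited raw counts per gene for the 6 libraries, and FPKM per library, in which the authors divided those counts by gene length and library total: all 15690 genes counted in at least 2 libraries gave 1 implied length (relative tolerance 0.0001). The submitters' processing notes list DESeq2 1.4.5 and mRatBN7.2, with no role. Which aligner, counter, annotation and strand setting were used was not given in the sources used here. The members and lists were chosen with earlier results of these data known.

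The count model was edgeR 4.0.16 under R 4.3.3, after TMM scaling and filterByExpr, which kept 13018 genes and removed 3831. Its robust quasi-likelihood fit, with 1 mean per group, left 3 residual degrees of freedom, the median prior degrees of freedom were 50.3 and the biological coefficient of variation was 6.47%. The 2-sided test was adjusted by Benjamini-Hochberg over all genes, and every adjusted p comes from it unless another tool is named. CPM are TMM-scaled, except those of the marker sums and of the 3-count level, which are of library totals. Differences are log2 values and n is 2 per group. Totals of 32760123 to 35389307 counts put 3 counts at 0.0848 to 0.0916 CPM. The script was tested on simulated counts. The labels do not state separate cultures, so p-values measure only how these samples spread, which may be technical.

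Replicate 1 is batch 1 and replicate 3 is batch 3 in the labels, so the replicate numbers pair the samples by batch. The library names number the second library of each group 2, and the titles and batch fields were followed. Deviations from group means of paired libraries correlated over 10898 genes at 0.02 between the materials, at 0.06 for PVDF@PDA and Control, and at 0.13 for PCL@PDA and Control. Alternatives were other scaling (DESeq2's size factors, library totals), no filter, a non-robust fit, DESeq2 1.42.0, the replicate block, the compared groups alone, limma 3.58.1 on log2 of the deposited FPKM plus 1 or 0.1, and leaving out each library. Named genes were the 10 members, up to 4 genes with the smallest p of each list, from which the text takes those it prints, and the 3 genes most alike to each of 3 members. Hrk, Birc7, Huwe1, Sfn and Perp were not analysed here, and some genes covered by the naming rule are not reported here.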

Additional observations from a re-analysis of the deposited data

How the results depend on the processing

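No called member value changed sign under any alternative run. Over the members, comparisons and alternatives, 442 values kept their direction and side of the threshold, 37 lost the call, 3 gained one and 28 changed sign where neither the reported fit nor that alternative called them. In PVDF@PDA against Control, the 1 member called higher became 0 in DESeq2, without a filter, with the replicate block in DESeq2 and in both limma fits, and 0 to 1 when a library was left out. The 2 members called lower became 0 in both limma fits and 1 to 2 with a library left out. In PCL@PDA against Control, the 2 members called higher became 1 in DESeq2, without a filter, with the replicate block in DESeq2, in the 2 groups compared alone and in both limma fits, and 0 to 2 with a library left out. The 2 called lower became 0 in both limma fits and 0 to 2 with a library left out. The limma fits on FPKM use the same libraries, and the cause of their fewer calls was not tested. Between the materials, members and pathway genes were called only without PCL@PDA replicate 1. That fit leaves 1 PCL@PDA library, and far more of all genes were called in it as well. The pathway counts against Control were 31 in PVDF@PDA, with 16 (pseudocount 1) and 19 (pseudocount 0.1) in limma and 15 to 39 with a library left out, and 38 in PCL@PDA, with 17 in both limma fits and 18 to 40 with a library left out. The 4 breaks in the order of levels became 4 to 6 with a library left out.

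With the replicate block in edgeR, 30 of 30 member comparisons kept their direction and call, as for Bcl2l1 in PVDF@PDA against Control (adjusted p = 6.67e-08). Against Control 37 pathway genes were then called in PVDF@PDA and 47 in PCL@PDA. Over all 13018 genes it called 2591 and 3051 in the same order, against 2042 and 2616 without the block. Over all genes that block called 59 between the materials, against 8 without it, with 2 residual degrees of freedom. The median prior degrees of freedom with the block were infinite, against 50.3 without it. For most genes its p-values thus rest on the spread shared over genes and not on the gene's own. The non-robust form of the block, chosen after seeing the data, called 22. By library totals alone the split over all genes was 1164 higher and 879 lower in PVDF@PDA against Control, in place of 884 and 1158, and 1482 and 1070 in PCL@PDA against Control, in place of 1142 and 1474. Only 2 libraries per group limit every comparison, and Bcl2 had the lowest counts, 52 to 76 per library.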
